A study of Mus musculus with 8 samples.

Results

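The 8 genes described here encode regulators of inflammatory mRNA decay: *Zfp36*, *Zfp36l1* and *Zfp36l2*, the regnase gene *Zc3h12a*, the roquin genes *Rc3h1* and *Rc3h2*, *Arid5a*, and *Elavl1*, which encodes HuR. They were selected by name from the 41709 genes with deposited abundances. *Arid5a* was chosen by its difference in TPM between the groups, being lower with *Uba1* siRNAs in these same muscles, so its values are given as a description with no test. The other 7 belong to the same protein families or act on the same mRNAs. All 8 genes were at 1 TPM or more (an abundance scaled by transcript length and library total) in every muscle.

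RNA-seq libraries were made from total RNA of 8 tibialis anterior (TA) muscles of male C57BL/6J mice aged 3 months. In each of 4 mice, one TA muscle received a pool of siRNAs against *Uba1*, which encodes the main E1 enzyme that activates ubiquitin, and the contralateral muscle received a non-targeting (NT) control pool. Both muscles were pretreated with hyaluronidase, injected with 1500 pmol of siRNAs in 30 μl, electroporated and collected 7 days later. The muscles are numbered as replicates 1 to 4, and muscles with the same number come from 1 mouse. All NT muscles carry the letter R and all *Uba1* muscles the letter L in their labels, so leg and siRNA cannot be told apart. Treatment tags name UBA2, UBA3 and UBA4 for *Uba1* replicates 2, 3 and 4, whereas their titles and descriptions name UBA1, which was used for grouping. Whole muscles were homogenized, so fewer cells of a type and less RNA per cell cannot be told apart in any value below.

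The length of an mRNA's life sets how much of a cytokine or early response protein a cell can make. TTP, the product of *Zfp36*, and its paralogs from *Zfp36l1* and *Zfp36l2* bind AU-rich elements near the 3′ end of short-lived mRNAs and recruit deadenylases. Regnase-1, from *Zc3h12a*, is an endonuclease that cuts stem-loops in mRNAs such as *Il6*, and roquins bind similar stem-loops and promote decay. Arid5a and HuR act in the opposite direction and stabilize mRNAs. In muscle, TTP family proteins and HuR are also known for controlling the mRNAs of myogenic factors such as *Myod1* and *Myog*.

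The targeted gene was checked first. *Uba1* mRNA was at 60.6, 59, 63.6 and 59.1 TPM in NT replicates 1 to 4, and at 18.1, 6.77, 15.8 and 23.1 TPM in *Uba1* replicates 1 to 4. All 4 muscles with *Uba1* siRNAs lay below all 4 with NT siRNAs, with the most mRNA left in replicate 4 and the least in replicate 2 (log2FC -1.98, limma adjusted p = 0.0527, and 0.0278 with the mouse as a block). The defining genes of skeletal muscle fibers were abundant, with 7 markers summing to between 91614 and 133353 TPM. The total number of reads per muscle is unknown, because TPM have the same total in every muscle. Differences were tested with limma on log2(TPM + 1) over 11530 genes, and log2FC stands for the mean with *Uba1* siRNAs minus the mean with NT siRNAs on that scale, on which changes of low genes come out too small. The median log2FC of all genes tested was 0.11, or -0.0055 when TPM were first rescaled by the median ratio, so a log2FC near 0.1 is where most genes lay.

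The 8 mRNAs did not share a direction. Their log2FC went from -0.84 for *Zc3h12a* to 0.63 for *Zfp36l2*, with a median of 0.00 when *Arid5a* is included. Of the 7 other than *Arid5a*, 4 were above 0, against 81.8% of all genes tested. With median-ratio scaling 3 of the 7 were above 0, against 48% of all genes. None of the 7 other than *Arid5a* was higher without overlap of the groups, against 10.6% of all genes tested. Limma called 0 of the 7 regulators other than *Arid5a* at an adjusted p of 0.05, against 0.0260% of all genes tested. At an unadjusted P under 0.05, limma had 3 of the 7, of which *Zc3h12a* was lower and *Zfp36l2* and *Rc3h1* higher, and the Kruskal-Wallis test had 2, *Zc3h12a* and *Zfp36l2*. Of all genes tested, 1.98% were lower and 16.0% higher at that limit. This balance turned with median-ratio scaling, where 6.70% of all genes were lower and 3.90% higher, and of the 7 regulators *Zc3h12a* and *Elavl1* were lower and *Zfp36l2* higher, while *Rc3h1* no longer was. When the mouse was added to the model as a replicate block, *Zc3h12a* fell and *Zfp36l2* rose at an adjusted p of 0.05, where 0.304% of all genes tested were called lower and 0.191% higher.

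**Figure D1:**
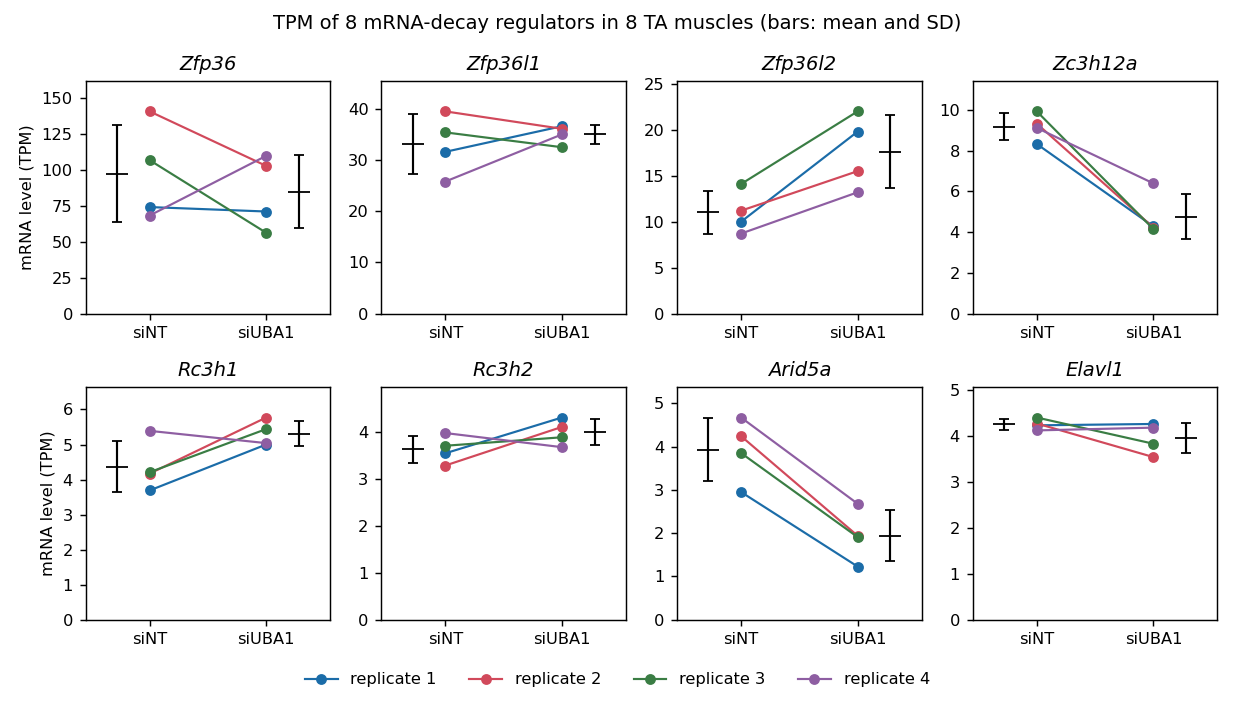
mRNA level in TPM (vertical axes, each starting at 0) of the 8 regulators with NT siRNAs (siNT) and *Uba1* siRNAs (siUBA1). Each line joins the 2 legs of a mouse, and black bars give the mean and SD of 4 muscles. *Zc3h12a* and *Arid5a* were lower with *Uba1* siRNAs in 4 of 4 mice without overlap of the groups, whereas *Zfp36l2* was higher in 4 of 4.

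*Zc3h12a* encodes regnase-1 and its gene spans positions 125012216 to 125021711 of chromosome 4 (build GRCm39, as for all genes below; minus strand). There were 8.32, 9.32, 9.92 and 9.11 TPM of its mRNA in NT replicates 1 to 4. With *Uba1* siRNAs it was at 4.28, 4.22, 4.15 and 6.39 TPM in the same order. The groups did not overlap, and every *Uba1* muscle was lower than the contralateral muscle. Groups that do not overlap in this direction were found for 1.01% of the genes tested. The mean went from 9.17 ± 0.665 to 4.76 ± 1.09 TPM (SD, n = 4 muscles each), which is 0.519 times the NT mean. A level lower in 4 of 4 mice was found for 2.98% of the genes tested, and for *Zc3h12a* alone among the 7 regulators other than *Arid5a*. Limma gave a log2FC of -0.84 (standard error 0.122, adjusted p = 0.0527), and the adjusted p was 0.0359 with the replicate block (limma, standard error 0.108). The exact permutation test gave p = 0.0286 (two-sided, n = 4 each), the smallest that 4 against 4 allow. Among all genes tested, its log2FC was the 54th from the lowest. *Uba1* replicate 4 was the exception in size, with a level 29.8% below its NT leg where the other mice were 48.5% to 58.2% below. Without that muscle the adjusted p was 0.00333 (limma) and the log2FC -0.96, whereas without any 1 of the other 7 muscles the adjusted p was 0.0748 to 0.23. With the block and 1 mouse left out at a time, *Zc3h12a* passed without the mouse of replicate 1 or 4, but not without that of replicate 2 or 3, and its adjusted p went from 0.0237 to 0.189 (limma).

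*Arid5a* encodes an AT-rich interaction domain protein that binds and stabilizes *Il6* mRNA, and spans positions 36346809 to 36363110 of chromosome 1 (plus strand). Its level was low, at 2.95, 4.24, 3.85 and 4.67 TPM in NT replicates 1 to 4 and at 1.23, 1.94, 1.91 and 2.68 TPM in *Uba1* replicates 1 to 4. The highest *Uba1* muscle, replicate 4, lay 0.276 TPM below the lowest NT muscle, replicate 1, so the groups were apart by little. Within mice the difference was more even than the levels. The pair ratios of *Uba1* leg to NT leg were 0.417, 0.458, 0.495 and 0.573 for replicates 1 to 4, and the mouse with the lowest level in one leg had the lowest in the other. The log2FC was -0.76, the 70th from the lowest of 11530 genes, with a standard error of 0.161 without the block and 0.0732 with it. These are the values by which the gene was picked. With any 1 muscle left out the log2FC was between -0.87 and -0.63, which describes the same values and is no separate check.

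*Arid5a* and *Zc3h12a*, whose products act in opposite directions on *Il6* mRNA, were thus both lower. The ratio of *Arid5a* to *Zc3h12a* TPM was 0.355, 0.455, 0.388 and 0.513 in NT replicates 1 to 4 and 0.288, 0.461, 0.46 and 0.419 in *Uba1* replicates 1 to 4, so the ratio overlapped between the groups while each level did not. Likeness between genes was measured as the root mean square difference between log2(TPM + 1) profiles over the 8 muscles, after each was centred on its mean. By this measure, *Zc3h12a* was the 5th most similar of all genes tested to *Arid5a*, at 0.17 log2 units, where the median gene was at 0.521. The profiles include the difference between the groups by which *Arid5a* was chosen, so any gene lower by a similar amount lies close to it, and the likeness is a description only. The 4 closer genes were *Tgif1* (0.0904), *Gprc5a* (0.106), *Adamts1* (0.151) and *Mafk* (0.164). *Tgif1*, a homeobox repressor gene, had a mean of 7.47 TPM in NT muscles and 3.86 TPM in *Uba1* muscles. *Gprc5a* had means of 2.18 and 0.79 TPM, and *Adamts1*, a secreted metalloproteinase gene, of 47.5 and 24.6 TPM. Among the other 7 regulators, *Zc3h12a* had the largest SD of log2(TPM + 1) over the 8 muscles (0.48, against 0.441 for *Zfp36*), although the range was wider for *Zfp36* (1.31) and *Zfp36l2* (1.24) than for *Zc3h12a* (1.09). The profiles closest to it were those of *Gprc5a* (0.0812), *Nfkbia* (0.138), *Irf1* (0.156), *Gpr132* (0.16) and *Ppp1r18* (0.162). *Nfkbia*, the inhibitor of NF-kB, had means of 70.9 and 44.1 TPM.

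The promoters of both genes are shown because their mRNAs were lower together, beside that of *Zfp36*, whose groups overlapped. Each is the RefSeq window from 250 bases before to 50 bases after the transcription start, 5′ to 3′ on the gene's strand (build GRCm38.p6), and capitals mark motif matches on either strand.
Zc3h12a, chr4:125127832-125128131, minus strand: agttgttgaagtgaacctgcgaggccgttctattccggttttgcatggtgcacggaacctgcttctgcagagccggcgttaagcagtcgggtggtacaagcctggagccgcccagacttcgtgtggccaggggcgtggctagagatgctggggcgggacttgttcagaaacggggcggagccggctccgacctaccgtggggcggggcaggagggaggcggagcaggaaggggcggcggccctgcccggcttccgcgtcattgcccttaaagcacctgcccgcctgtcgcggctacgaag
Arid5a, chr1:36307483-36307782, plus strand: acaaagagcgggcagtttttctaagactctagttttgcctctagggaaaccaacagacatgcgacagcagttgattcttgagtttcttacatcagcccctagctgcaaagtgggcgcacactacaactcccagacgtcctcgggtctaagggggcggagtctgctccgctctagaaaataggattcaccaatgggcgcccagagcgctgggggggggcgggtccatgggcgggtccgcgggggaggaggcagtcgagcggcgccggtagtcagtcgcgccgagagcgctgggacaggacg
Zfp36, chr7:28379179-28379478, minus strand: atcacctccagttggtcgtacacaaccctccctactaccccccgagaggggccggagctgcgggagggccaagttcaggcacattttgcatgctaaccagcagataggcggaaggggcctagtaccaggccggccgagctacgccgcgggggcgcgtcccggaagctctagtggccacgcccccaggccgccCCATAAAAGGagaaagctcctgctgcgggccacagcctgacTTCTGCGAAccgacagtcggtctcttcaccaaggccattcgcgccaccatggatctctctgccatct
The motifs searched were the NF-kB consensus, the CArG box bound by SRF, the STAT site TTCNNNGAA and the AP-1 site (TGACTCA or TGAGTCA). The windows of *Zc3h12a* and *Arid5a* held 0 matches to any of them. That of *Zfp36* held 1 CArG box, which starts 58 bases before the transcription start, and 1 STAT site, which starts 17 bases before it, and these do not overlap. Of 32851 such windows in the genome, 8.46% held the NF-kB motif, 1.63% the CArG box, 8.3% the STAT site and 5.2% the AP-1 site. Of the other regulators, *Rc3h1* held 1 AP-1 site and *Zfp36l1*, *Rc3h2* and *Elavl1* held 0 matches.

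Among the 3 TTP family genes, *Zfp36l2* passed with the replicate block, being higher with *Uba1* siRNAs, and *Zfp36* and *Zfp36l1* passed in neither fit. *Zfp36l2* encodes the TTP paralog known for its role in blood stem cells and lymphocytes, and spans positions 84491132 to 84495382 of chromosome 17 (minus strand). The NT muscles of replicates 1 to 4 held 10, 11.2, 14.1 and 8.71 TPM of it and the *Uba1* muscles 19.8, 15.5, 22 and 13.2 TPM. Every mouse had the higher level in the *Uba1* leg, but the groups overlapped, since *Uba1* replicate 4 lay below NT replicate 3. A higher level in 4 of 4 pairs was found for 32.2% of the genes tested. The mean went from 11 ± 2.32 to 17.6 ± 3.96 TPM (SD, n = 4 each), 1.6 times the NT mean. Limma gave a log2FC of 0.63 (standard error 0.175, adjusted p = 0.165), while the fit with the block had a standard error of 0.0883 and an adjusted p of 0.0445 (limma). With the block and 1 mouse left out at a time, it passed only without the mouse of replicate 1, and its adjusted p went from 0.0232 to 0.234 (limma). Relative to the median gene the log2FC was 0.52, and with median-ratio scaling it was 0.51. Its log2FC was the 54th from the highest.

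Levels of *Zfp36l2* followed those of fibroblast markers in part. The 6 fibroblast markers summed to 788, 569, 992 and 475 TPM in NT replicates 1 to 4 and to 1037, 598, 1217 and 707 TPM in *Uba1* replicates 1 to 4. The sum was higher in the *Uba1* leg in each mouse, replicate 3 had the highest value in both groups for the markers, for *Zfp36l2* and for the leukocyte markers below, and 5 of the 6 markers had a log2FC above 0, as did 81.8% of all genes tested (5 of 6 and 48% with median-ratio scaling). The log2FC was 0.57 for the collagen gene *Col1a1*, 0.49 for the proteoglycan gene *Lum*, which was the one marker higher at an unadjusted P under 0.05 (limma), and 0.30 for the receptor gene *Pdgfra*, while 0 of the 6 passed an adjusted p of 0.05 with or without the block. The 13 leukocyte markers summed to between 158 and 475 TPM in NT muscles and between 149 and 501 TPM in *Uba1* muscles. Of the 9 tested, 5 had a log2FC above 0 (3 with median-ratio scaling). The largest log2FC among them were 0.63 for the neutrophil gene *S100a8*, which was at 4.11 to 14.5 TPM in NT muscles and 9.57 to 19.6 TPM in *Uba1* muscles, and -0.56 and -0.30 for the macrophage genes *Cd14* and *Cd68*. No marker of either list was at 0 in all muscles, although the neutrophil gene *Ly6g* was at 0 in all 4 NT muscles and at most 0.0699 TPM in the others. Their part in the result was not tested.

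*Zfp36* encodes TTP itself, an early response protein, and spans positions 28076209 to 28079710 of chromosome 7 (minus strand). It had the highest TPM of the 8 mRNAs in every muscle and the largest coefficient of variation among NT muscles. Its level was 74.3, 141, 107 and 68.4 TPM in NT replicates 1 to 4 and 71.2, 103, 56.4 and 110 TPM in *Uba1* replicates 1 to 4. The groups overlapped over most of their range, and 3 mice had the lower level in the *Uba1* leg while replicate 4 had the higher, at 1.61 times its NT leg. Limma gave a log2FC of -0.19 (standard error 0.269, adjusted p = 0.708), and it became 0.0089 without NT replicate 2. The coefficient of variation was 34.4% with NT siRNAs and 29.9% with *Uba1* siRNAs, against 2.8% and 8.41% for *Elavl1*. In the sum of 21 other immediate-early genes, which the abundant ones dominate, NT replicate 2 was highest (2817 TPM), *Uba1* replicate 4 second (2163 TPM) and *Uba1* replicate 3 lowest (1000 TPM), and the same muscles held these places for *Zfp36*. Single genes of that list differed in order, and *Atf3* in *Uba1* replicate 4 (45.8 TPM) lay below every NT muscle.

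*Zfp36l1* encodes a TTP paralog needed for vascular development in the embryo, and spans positions 80154528 to 80160006 of chromosome 12 (minus strand). It was at 31.6, 39.5, 35.4 and 25.8 TPM in NT replicates 1 to 4 and at 36.6, 36.1, 32.5 and 35 TPM in *Uba1* replicates 1 to 4. All 4 *Uba1* muscles lay within the range of the NT muscles, 2 mice being higher and 2 lower. In limma its log2FC was 0.10 (standard error 0.118, adjusted p = 0.655), which is the median of all genes within 0.01, and its sign turned with median-ratio scaling (-0.03).

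Because a share within a muscle does not depend on how TPM were scaled, the make-up of the family was also compared. *Zfp36* made up 64.1%, 73.6%, 68.3% and 66.5% of the family's TPM in NT replicates 1 to 4 and 55.8%, 66.5%, 50.9% and 69.5% in *Uba1* replicates 1 to 4. The mean share was 68.1% ± 4.03 in NT muscles and 60.7% ± 8.79 in *Uba1* muscles (SD, n = 4 each, exact permutation test, two-sided, p = 0.257). *Zfp36l2* made up 7.99% ± 1.45 and 13.4% ± 5.23 (SD, n = 4 each, exact permutation test, two-sided, p = 0.114), and *Zfp36l1* 23.9% ± 2.91 and 25.9% ± 3.65. In *Uba1* replicates 1, 2 and 3 the *Zfp36l2* share was 15.5%, 10.1% and 19.8%, above every NT muscle, whereas in *Uba1* replicate 4 it was 8.37%, among the NT values. The family as a whole summed to 142 ± 40.4 and 138 ± 22.5 TPM (SD, n = 4 each), a difference smaller than the SD of either group.

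**Figure D2:**
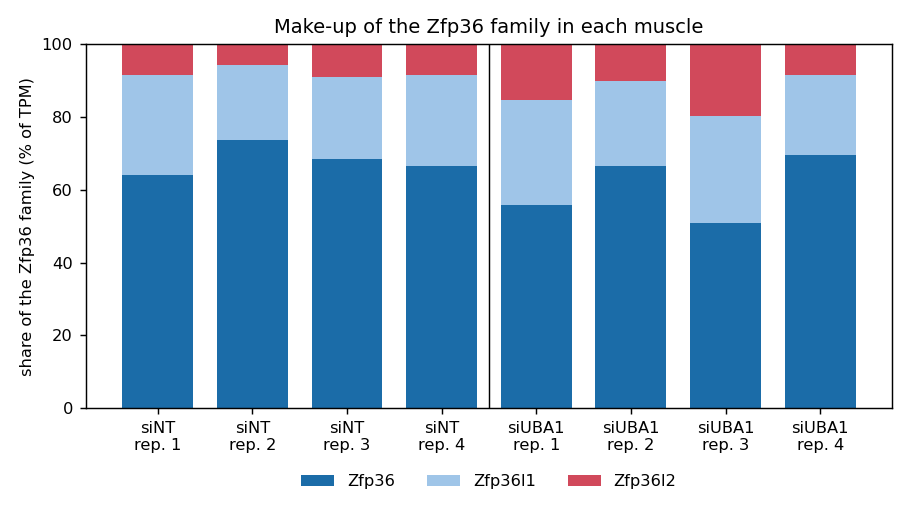
Share of *Zfp36*, *Zfp36l1* and *Zfp36l2* in the summed TPM of the 3 genes (vertical axis, percent) for each of the 8 muscles. *Zfp36* was the largest part in every muscle, from 50.9% to 73.6%, and *Zfp36l2* reached 19.8% in *Uba1* replicate 3.

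TTP family proteins bind the nonamer TTATTTATT (written here as DNA) and shorter forms of it, and are known to bind their own mRNAs. The stretch between stop codon and 3′ end of each gene's canonical transcript (GENCODE M39, GRCm39) was therefore searched for it on the sense strand, counting overlapping matches. It was found in 6 of the 8 regulators and in 9 of the 30 target mRNAs listed below, against 8.34% of 20845 protein-coding transcripts. The 6 regulators did not include *Zc3h12a* and *Arid5a*, the genes whose levels did not overlap between the groups. The search covers these letters only, and long 3′ ends hold more matches by length alone: the stretch is 856 bases in *Zc3h12a*, 774 in *Zfp36*, 3826 in *Arid5a* and 7024 in *Elavl1*. The sites of the TTP family and roquins, which show the core and how its flanks differ, are given with the nonamer in capitals, beside 1 of the 2 sites of the TTP target *Cxcl1*.
Zfp36, chr7:28076376-28076404, minus strand: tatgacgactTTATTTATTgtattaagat
Zfp36l1, chr12:80154941-80154969, minus strand: aactgttggaTTATTTATTttagaaattc
Zfp36l2, chr17:84492342-84492370, minus strand: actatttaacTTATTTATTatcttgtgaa
Rc3h1, chr1:160797613-160797641, plus strand: actttactcaTTATTTATTgagatgagga
Rc3h2, chr2:37263299-37263327, minus strand: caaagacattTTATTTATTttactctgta
Rc3h2, chr2:37259690-37259718, minus strand: cagagtacctTTATTTATTcacccagctg
Cxcl1, chr5:91040474-91040502, plus strand: atttatgtatTTATTTATTccacaaagtg
*Zfp36*, *Zfp36l1*, *Zfp36l2* and *Rc3h1* held 1 site each and *Rc3h2* 2. *Elavl1* held 8 in a single cluster, most of them overlapping. The targets *Ccl2*, *Ccl7*, *Myc*, *Socs3* and *Il6*, described below, held 0.

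Neither roquin gene passed an adjusted p of 0.05 with or without the block (limma). *Rc3h1* encodes roquin-1, a RING finger protein whose mutation in sanroque mice gives autoimmunity, and spans positions 160733982 to 160802548 of chromosome 1 (plus strand). It was at 3.69, 4.17, 4.21 and 5.39 TPM in NT replicates 1 to 4 and at 5, 5.77, 5.44 and 5.04 TPM in *Uba1* replicates 1 to 4. NT replicates 1, 2 and 3 lay below all *Uba1* muscles, but NT replicate 4 lay among them. In limma its log2FC was 0.24 (standard error 0.1, adjusted p = 0.252), or 0.14 above the median gene, and it was the 1478th from the highest of 11530 genes (unadjusted P = 0.0383 in limma). *Rc3h2*, the gene of roquin-2 at positions 37258909 to 37313172 of chromosome 2 (minus strand), was at 3.54, 3.28, 3.7 and 3.97 TPM in NT muscles and at 4.3, 4.1, 3.88 and 3.67 TPM in *Uba1* muscles. Its groups overlapped, and the mouse of replicate 4 was again the one with the lower level in the *Uba1* leg. In limma its log2FC was 0.11 (standard error 0.0762, adjusted p = 0.438), equal to that of the median gene. *Rc3h1* took 54.5% ± 2.9 of the roquin TPM in NT muscles and 57.1% ± 2.24 in *Uba1* muscles (SD, n = 4 each, exact permutation test, two-sided, p = 0.171), and its share was higher in the *Uba1* leg in 4 of 4 mice.

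*Elavl1* spans positions 4332576 to 4375489 of chromosome 8 (minus strand). Of the 8 regulators it had the smallest SD of log2(TPM + 1) over the 8 muscles (0.0823). Within the *Uba1* muscles, its coefficient of variation (8.41%) was above that of *Zfp36l1* (5.31%). HuR, its product, binds AU-rich elements and protects mRNAs from decay. *Elavl1* mRNA was at 4.23, 4.27, 4.4 and 4.12 TPM in NT replicates 1 to 4 and at 4.26, 3.54, 3.83 and 4.18 TPM in *Uba1* replicates 1 to 4. The lowest values were in *Uba1* replicates 2 and 3, while replicates 1 and 4 matched their NT legs within 0.1 TPM. In limma its log2FC was -0.09 (standard error 0.0716, adjusted p = 0.506), or -0.19 with median-ratio scaling.

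**Figure D3:**
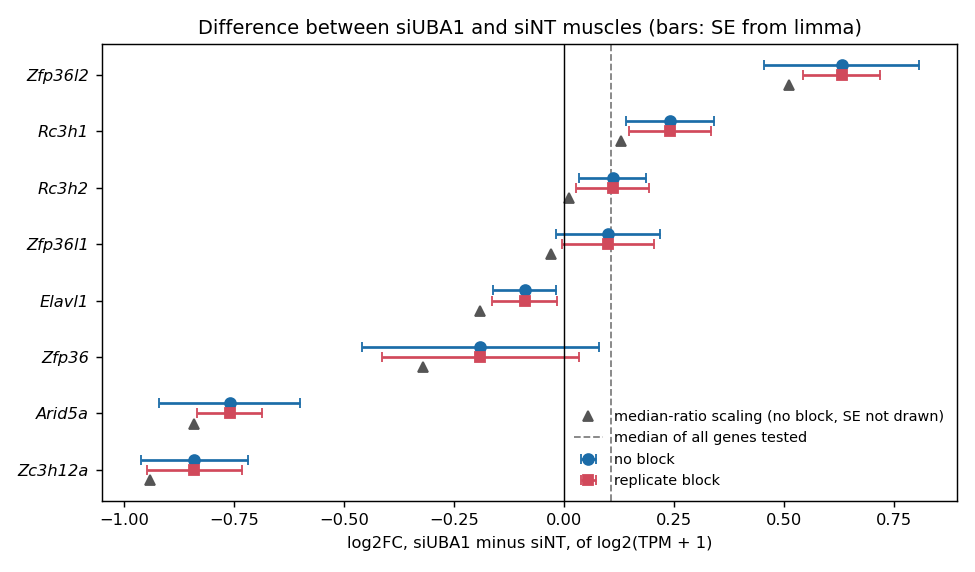
log2FC of the 8 regulators (horizontal axis, *Uba1* siRNAs minus NT siRNAs, of log2(TPM + 1)) without the block (circles), with the replicate block (squares), both with standard errors from limma, and with median-ratio scaling (triangles). *Zc3h12a* (-0.84) and *Arid5a* (-0.76) lie lowest and *Zfp36l2* (0.63) highest, and the dashed line marks the median of all genes, 0.11.

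The mouse of replicate 4 had the smallest differences between its legs for *Zc3h12a* and *Arid5a*, and the opposite sign from the other mice for *Zfp36*. The differences of log2(TPM + 1) between the legs were -0.82, -0.98, -1.09 and -0.45 in replicates 1 to 4 for *Zc3h12a* and -0.82, -0.83, -0.74 and -0.63 for *Arid5a*. For *Zfp36* they were -0.06, -0.45, -0.91 and 0.68. *Uba1* mRNA in the mouse of replicate 4 was 60.9% below the NT leg, against 70.2% to 88.5% in the other mice. Replicate 2 had the largest loss of *Uba1* in percent, whereas the largest loss was in replicate 1 for *Arid5a* (58.3%) and in replicate 3 for *Zc3h12a* (58.2%) and *Zfp36* (47.2%). A relation between the loss of *Uba1* mRNA and these differences was not tested.

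**Figure D4:**
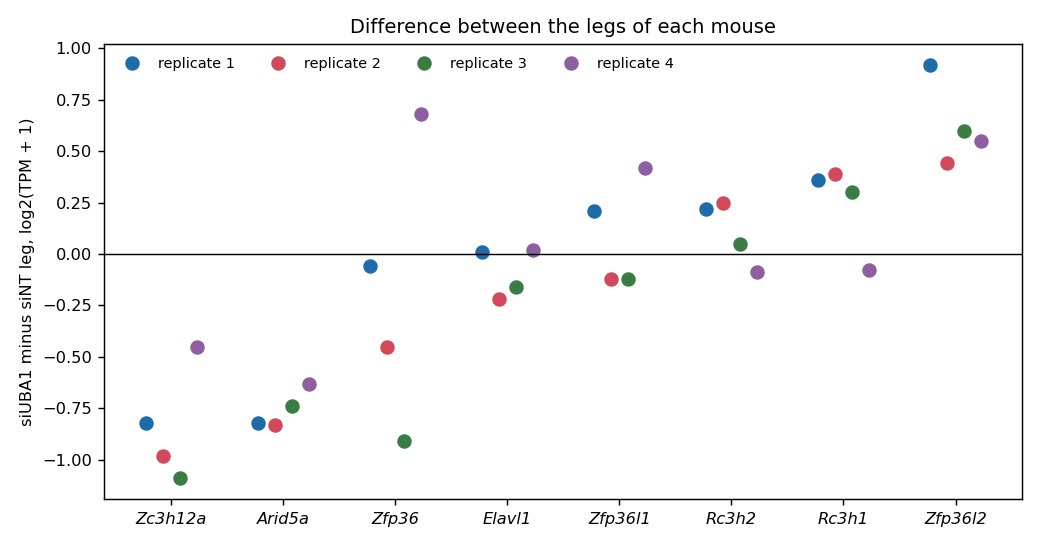
Difference between the *Uba1* leg and the NT leg of each mouse (vertical axis, log2(TPM + 1)) for the 8 regulators, with 1 point per mouse. All 4 points lie below 0 for *Zc3h12a* and *Arid5a* and above 0 for *Zfp36l2*, and replicate 4 lies at 0.68 for *Zfp36* where the others lie below 0.

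The rest of the pathway was described from 4 lists of genes. Because 81.8% of all genes tested had a log2FC above 0 but 48% with median-ratio scaling, both counts are given. Of 14 related RNA-binding proteins, 8 were tested, 6 had a log2FC above 0 (4 with median-ratio scaling), and 0 passed an adjusted p of 0.05 in limma with or without the block, with 3 higher and 1 lower at an unadjusted P under 0.05 (16.0% and 1.98% of all genes). With median-ratio scaling 0 were higher and 1 lower at that limit (3.90% and 6.70% of all genes). *Tial1*, whose product binds AU-rich elements and represses translation, was at 9.53 to 11 TPM in NT muscles and at 11.7 to 13.5 TPM in *Uba1* muscles, a log2FC of 0.24 (limma adjusted p = 0.174). *Arid5b*, the paralog of *Arid5a*, was at 4.99 to 7.36 TPM and at 4.09 to 5.89 TPM, lower in 4 of 4 mice with overlap of the groups (log2FC -0.37, limma adjusted p = 0.208). The regnase paralog *Zc3h12c* was at 0.991 to 1.75 TPM and at 1.41 to 1.84 TPM (log2FC 0.24, limma adjusted p = 0.317). The paralogs *Zfp36l3*, *Zc3h12b*, *Zc3h12d*, *Elavl2*, *Elavl3* and *Elavl4* were below the filter.

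The machinery that carries out decay differed little. Of 45 genes for deadenylases, decapping factors, exonucleases with their cofactors and the helicase UPF1, 44 were tested, and their log2FC went from -0.08 to 0.22, with 38 above 0 (21 with median-ratio scaling). Their median log2FC was 0.11, equal to that of all genes, and 0 passed in limma with or without the block. At an unadjusted P under 0.05, 4 were higher and 0 lower, against 16.0% and 1.98% of all genes, and with median-ratio scaling 0 were higher and 1 lower, against 3.90% and 6.70%. The 3 with the largest log2FC were *Xrn1*, the cytoplasmic exonuclease gene (0.22), *Dcp2*, the decapping enzyme gene (0.21), and the exosome gene *Exosc3* (0.20). They were higher in 4 of 4 mice, like 32.2% of all genes, and *Dcp2* had no overlap of the groups.

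Among 12 genes for enzymes and adaptors known to modify, cleave or mark these regulators, 10 had a log2FC above 0 (6 with median-ratio scaling). The median log2FC was 0.11 and 0 passed in limma with or without the block. At an unadjusted P under 0.05, 2 were higher and 1 lower, against 16.0% and 1.98% of all genes. With median-ratio scaling 0 were higher and 1 lower at that limit, against 3.90% and 6.70% of all genes. *Mapk14* encodes p38α, which through MK2 phosphorylates and stabilizes TTP, and was at 60.4 to 66.4 TPM in NT muscles and at 66.8 to 78.3 TPM in *Uba1* muscles (log2FC 0.22, limma adjusted p = 0.181). The MK3 gene *Mapkapk3* had a log2FC of 0.26 (limma adjusted p = 0.242). *Bcl10*, an adaptor of the MALT1 protease that cleaves regnase-1 and roquins, was at 6.39 to 7.57 TPM and at 5.66 to 6.34 TPM without overlap (log2FC -0.17, limma adjusted p = 0.274).

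Most mRNAs known as targets of these proteins had a log2FC below 0. Of 30 listed, 23 were tested, with 20 log2FC below 0 and 3 above (2 above with median-ratio scaling). Their median log2FC was -0.60, against 0.11 for all genes, and in 7 the groups did not overlap with *Uba1* siRNAs lower, a pattern found in 1.01% of all genes. Limma called 1 of the 23 lower without the block, *Ccl2*, and 4 lower with it, *Ccl2*, *Ccl7*, *Myc* and *Socs3*. These shares compare with 0.0260% of all genes called in either direction without the block and 0.304% called lower with it. With the block and without the mouse of replicate 1, these 4 were again among the genes called, but without that of replicate 2 *Ccl7* was lost, without that of replicate 4 only *Ccl2* was called, and without that of replicate 3 none of the 4 was (limma). At an unadjusted P under 0.05 there were 13 lower and 0 higher, against 1.98% lower and 16.0% higher among all genes. With median-ratio scaling there were 14 lower and 0 higher, against 6.70% and 3.90% of all genes.

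*Ccl2* encodes the monocyte chemokine MCP-1. It was at 28, 40.7, 38.1 and 34.6 TPM in NT replicates 1 to 4 and at 3.45, 1.8, 3.7 and 6.07 TPM in *Uba1* replicates 1 to 4, so every *Uba1* muscle was far below every NT muscle (log2FC -3.00, limma adjusted p = 0.00429). *Socs3*, the feedback inhibitor of IL-6 signaling, was at 18.5, 37.9, 22 and 34.1 TPM and at 10.9, 11.4, 10.1 and 20.1 TPM, lower in 4 of 4 mice though *Uba1* replicate 4 lay above NT replicate 1 (log2FC -1.03, limma adjusted p = 0.15, 0.0478 with the block). *Myc*, a growth-related transcription factor gene, was at 7.96 to 13.6 TPM and at 3.22 to 6.32 TPM without overlap (log2FC -1.21, limma adjusted p = 0.076, 0.0268 with the block). *Ccl7* had a log2FC of -2.45 (limma adjusted p = 0.0515, 0.0359 with the block) and *Cxcl1*, a neutrophil chemokine gene, of -2.28 (limma adjusted p = 0.116, 0.0658 with the block). *Il6*, the mRNA on which regnase-1 and Arid5a are known to act in opposite directions, was chosen after its values were seen. It was at 2.06 to 5.72 TPM in NT muscles and at 0.0854 to 1.36 TPM in *Uba1* muscles without overlap (log2FC -1.56, limma adjusted p = 0.0909, 0.0641 with the block). The myogenic targets *Myod1* and *Myog* were also named outside the rule for named genes. *Myod1* had a log2FC of 0.34 (limma adjusted p = 0.319) and *Myog* one of -0.39 (limma adjusted p = 0.63).

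Most immediate-early genes had a log2FC below 0 too, as *Zc3h12a* and *Arid5a* did. Of 21 immediate-early genes, which respond within an hour to a stimulus or to handling, 20 were tested, 18 had a log2FC below 0 and 2 above (1 above with median-ratio scaling), 11 were lower and 0 higher at an unadjusted P under 0.05 (limma), and the median log2FC was -0.72. Among all genes tested, 1.98% were lower and 16.0% higher at that limit. With median-ratio scaling 11 were again lower and 0 higher, against 6.70% and 3.90% of all genes. They summed to between 1628 and 2817 TPM in NT muscles and between 1000 and 2163 TPM in *Uba1* muscles. *Atf3* fell with the replicate block (log2FC -2.23, limma adjusted p = 0.00663, 0.0575 without it), as did *Maff* (log2FC -1.22, limma adjusted p = 0.0359, 0.129 without it) and *Myc*, and the nuclear receptor genes *Nr4a3* and *Nr4a2* had a log2FC of -1.49 and -1.28. Not all followed, since the phosphatase gene *Dusp1*, named after its value was seen, had a log2FC of 0.12 (-0.01 with median-ratio scaling). The target list shares *Fos*, *Ier3* and *Myc* with this list, and without these 3 genes, 17 of 20 tested targets had a log2FC below 0 and 12 were lower at an unadjusted P under 0.05. Leukocyte markers had a median log2FC of 0.00 over 9 tested genes (-0.13 with median-ratio scaling), with 0 of 9 at an unadjusted P under 0.05 in limma. Neither the part of early gene responses nor that of leukocytes in the lower *Zc3h12a*, *Arid5a* and target mRNAs was tested.

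**Figure D5:**
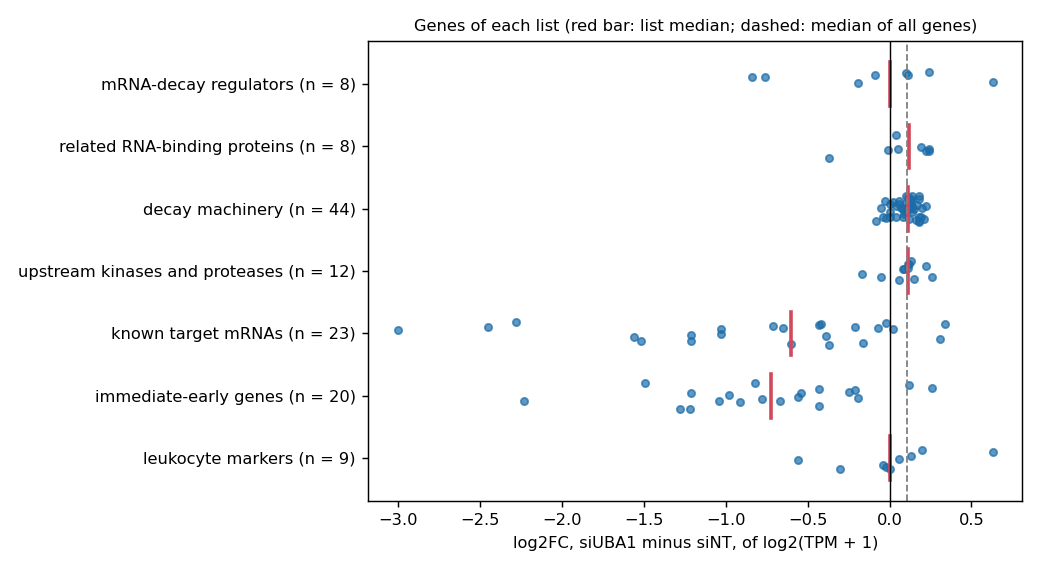
log2FC (horizontal axis, *Uba1* siRNAs minus NT siRNAs, of log2(TPM + 1)) of each tested gene of 7 lists, 1 point per gene with random vertical spread, a red bar at the list's median and a dashed line at the median of all genes. The decay machinery clusters around 0.11, whereas the medians of known target mRNAs and immediate-early genes lie at -0.60 and -0.72.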

How the data were processed

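Per the paper's methods, the authors prepared libraries from total RNA with the TruSeq RNA Sample Prep v2 Kit, trimmed and filtered the reads, used CLC Genomics Workbench (version 20.0.4) with the GRCm39 genome, and deposited TPM per gene. How reads matching several genes were counted, and the annotation, are not given in the sources used here. TPM keep no read totals, so no counting interval is given, and 4 muscles per group limit the precision. All columns were assigned to a sample by title.

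The 11530 genes that reached 1 TPM in 4 or more muscles were tested on log2(TPM + 1) with limma (version 3.58.1 in R 4.3.3; eBayes with trend, Benjamini-Hochberg adjustment) without covariates. The paper's methods name a Kruskal-Wallis test, which was an alternative. Limma was tested on simulated data. The replicate block added the mouse: same-numbered muscles are legs of 1 mouse, and their deviations from the group means correlated across genes at -0.000368, 0.201, 0.584 and 0.537. Other values were compared with exact permutation tests.

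The regulators, gene lists, tests and motifs were chosen with earlier results of these data known. Named genes were the 8 regulators, *Uba1*, in each list the genes passing with or without the block and the 3 with the largest log2FC in either direction (endothelial, satellite cell and fiber markers, which met the rule only by size, are given as counts), and for *Arid5a* and the other regulator with the largest SD of log2(TPM + 1) over all muscles the 5 closest profiles. *Il6*, *Dusp1*, *Myod1*, *Myog*, *Il10*, *Csf2*, *Ifng*, *Ly6g* and the genes named only as shared between lists or as below the filter were named outside this rule, after their values were seen. Lists of endothelial, satellite cell and fiber markers gave 0 genes passing an adjusted p of 0.05 among 7, 3 and 7 tested (limma, with or without the block), with 0, 1 and 0 at an unadjusted P under 0.05 (0, 1 and 5 with median-ratio scaling). The genes at that limit were all lower, against 1.98% of all genes tested, or 6.70% with median-ratio scaling. With quantile normalization 0 of the 7 fiber markers were at that limit. Gene positions and 3′ ends come from GENCODE M39, and promoters from RefSeq (7 of the 8 genes matched).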

Additional observations from a re-analysis of the deposited data

Results flagged for a closer look

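Muscles far from the other 3 of their group were searched in 26 groups of 4 values: the 8 regulators, *Uba1* and 4 shares, each with NT and *Uba1* siRNAs. About 1.3 would be found by chance and 2 were. *Zc3h12a* was at 6.39 TPM in *Uba1* replicate 4, while the other 3 *Uba1* muscles lay between 4.15 and 4.28 TPM. *Rc3h1* took 53.8% of the roquin TPM in *Uba1* replicate 1, while the other 3 *Uba1* muscles lay between 57.9% and 58.5%.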

How the results depend on the processing

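Over all genes, the adjusted p was passed by 3 genes in the reported test and by 11 when a mean of 5 TPM was required. Scaling by the median ratio gave 28 (450 genes higher and 773 lower at an unadjusted P under 0.05, against 1844 and 228 in the reported test), quantile normalization 28 (513 and 595), and TPM recomputed without mitochondrial genes 13. The replicate block gave 57, or 82 together with scaling by the median ratio. The Kruskal-Wallis test gave 0, since its p has a lower limit with 4 against 4 (2013 genes were higher and 197 lower at an unadjusted P under 0.05). With 1 muscle left out, 2 to 39 genes passed, 39 without *Uba1* replicate 4. With the block and without the mouse of replicate 1, 2, 3 or 4, an alternative chosen after seeing the data, 290, 26, 7 and 29 passed.

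Of the 7 regulators other than *Arid5a*, 0 passed in the reported test. *Zc3h12a* alone (1 gene) passed with the mean of 5 TPM, median-ratio scaling, quantile normalization or without *Uba1* replicate 4, and 2 passed (*Zc3h12a* and *Zfp36l2*) with the block, whether or not TPM were rescaled. Leaving out 1 muscle gave 0 to 1, and the block without 1 mouse 0 to 2. Of the 4 pathway lists, 1 gene passed in the reported test, 2 with the mean of 5 TPM, median-ratio scaling, quantile normalization or no mitochondrial genes, 4 with the block, whether or not TPM were rescaled, and 0 with the Kruskal-Wallis test. Leaving out 1 muscle gave 1 to 5, and the block without 1 mouse 8, 3, 0 and 1 for replicates 1 to 4.

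Signs turned only for small values. The log2FC of *Zfp36* was 0.0089 without NT replicate 2 (-0.34 to 0.0089 with any 1 muscle left out) and 0.05 with the block without replicate 3. That of *Zfp36l1* was -0.03 after scaling by the median ratio, in either model, and -0.01 without NT replicate 4 (-0.01 to 0.19 with any 1 muscle left out) or with the block without replicate 4. That of *Rc3h2* was -0.01 with quantile normalization. *Zc3h12a*, *Zfp36l2*, *Rc3h1* and *Elavl1* kept their sign in every alternative that tested them. The log2FC of *Arid5a*, which was not tested, was below 0 wherever it was computed. That only describes the values used to pick it. A mean of 5 TPM left no value for *Arid5a*, *Rc3h1*, *Rc3h2* and *Elavl1*. The *Zfp36* and *Rc3h1* shares passed in 0 of 10 alternatives each, sign flips of the 4 pairs included, whose smallest p is 0.125. With 1 muscle left out, the difference of the *Zfp36* share was -10.4 to -4.17 percentage points (-4.17 without *Uba1* replicate 3) and that of the *Rc3h1* share 1.53 to 3.78 (1.53 without NT replicate 1). The cause of these changes was not tested.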

Other observations

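The nonamer bound by TTP was also looked up in all genes tested, since a shift of its carriers as a group would not show in the list of known targets. Of 10767 tested genes with a canonical 3′ end, 738 held 1 nonamer and 215 held 2 or more. The median log2FC was 0.105 in the 9814 genes without it, 0.115 with 1 and 0.097 with 2 or more, so the bulk of the carriers lay with other genes. At an unadjusted P under 0.05 (limma), 1.85% of genes without it were lower, 3.25% of those with 1 and 6.05% of those with 2 or more, the last being 13 genes. Higher genes were 15.8%, 19.2% and 18.6%. These shares are a description, since genes with the nonamer also differ from others in the length of their 3′ end, and were chosen after seeing the data.

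Among listed targets below the filter, *Il10* reached at most 1.02 TPM, *Csf2* 0.173 TPM and *Ifng* 0.107 TPM in any muscle, so these cytokine mRNAs of lymphocytes and macrophages were too low to compare.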
